A study of Mus musculus with 15 samples.

Results

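The genes described here encode the machinery that copies DNA in S phase, the part of the cell cycle in which the genome is duplicated. The list has 42 genes, chosen by name for their part in replication, with earlier results of these data known. A gene was measured by the probe sets whose array annotation gives its symbol alone. Of the 42 genes, 41 had such a probe set and 39 had enough signal to be tested, out of 9257 genes tested in all. RNA came from colon scrapings of C57BL/6 males aged 11 weeks, each analysed singly on its own array. For 14 days both groups were fed a basal diet that was poor in calcium and rich in fat (40% of energy). The control group (6 mice) received it without heme, and the heme group (9 mice) received it with heme, the iron-porphyrin pigment of red meat, at 0.5 umol per g. The series title sets the question, the effect of dietary heme on the turnover of the colon epithelium. A scraping holds epithelium and some underlying tissue, and in such bulk samples a change in the number of cells of a type and a change in RNA per cell cannot be told apart.

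Replication starts at origins, which are licensed in G1 phase when the origin recognition complex, Cdc6 and Cdt1 load the ring-shaped MCM2-7 helicase onto DNA. At the start of S phase Cdc45 and the GINS complex join the helicase and activate it, primase and DNA polymerase alpha lay down primers, and polymerases delta and epsilon extend them. The sliding clamp PCNA, placed by the clamp loader RFC, holds polymerases on DNA, RPA covers single strands, and Fen1 and Lig1 join the fragments of the lagging strand. Ribonucleotide reductase, thymidine kinase and related enzymes supply the deoxynucleotides. In the colon these genes are expressed mainly by the dividing cells of the lower crypt, and many are known targets of the E2F transcription factors.

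The replication genes were higher in heme-fed mice in nearly every step of the process. Of the 39 tested genes, 33 rose, 0 fell and 6 were not called (limma, Benjamini-Hochberg adjusted p under 0.05 over all tested genes). The share that rose was 84.6%, whereas 27.2% of all tested genes rose and 26.4% fell. The largest rises were those of Rrm2, the small subunit of ribonucleotide reductase, of Gins2, a subunit of the helicase activator GINS, and of thymidine kinase Tk1, at 3.25-fold, 3.23-fold and 2.78-fold. The median log2 fold change (heme minus control) of the 39 genes was 0.68, and that of all tested genes was -0.01. Every heme mouse lay above every control for 18 of the 39 genes, which was so for 11.2% of all tested genes. A rise of at least 2-fold was found for 6 of the 39, Rrm2, Gins2, Tk1, Pole2, Rrm1 and Cdc6, and for 2.98% of all tested genes. Of these Cdc6 had 5 of 6 controls under the signal floor explained below, and with values raised to that floor its log2 fold change was 0.76, under 2-fold.

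The test required a signal over 20 (4.32 on the log2 scale), called the floor below, on at least 6 arrays. A gene that passed only because the heme arrays were bright had to differ, which matters for the 6 genes that were over the floor on some arrays only, Cdc6, Mcm10, Cdc45, Gins2, Tyms and Chaf1b. Among the 33 replication genes over the floor on all 15 arrays, 27 rose, 0 fell and 14 had groups that did not overlap. Of all genes over the floor on every array 27.5% rose, 26.2% fell and 11.3% had every heme mouse above every control. For Cdc45 all controls lay under the floor, and the median of the 39 genes was 0.67 with this gene at its bound. The chart of log2 fold changes by role shows all 39 genes with their intervals.

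**Figure D1:**
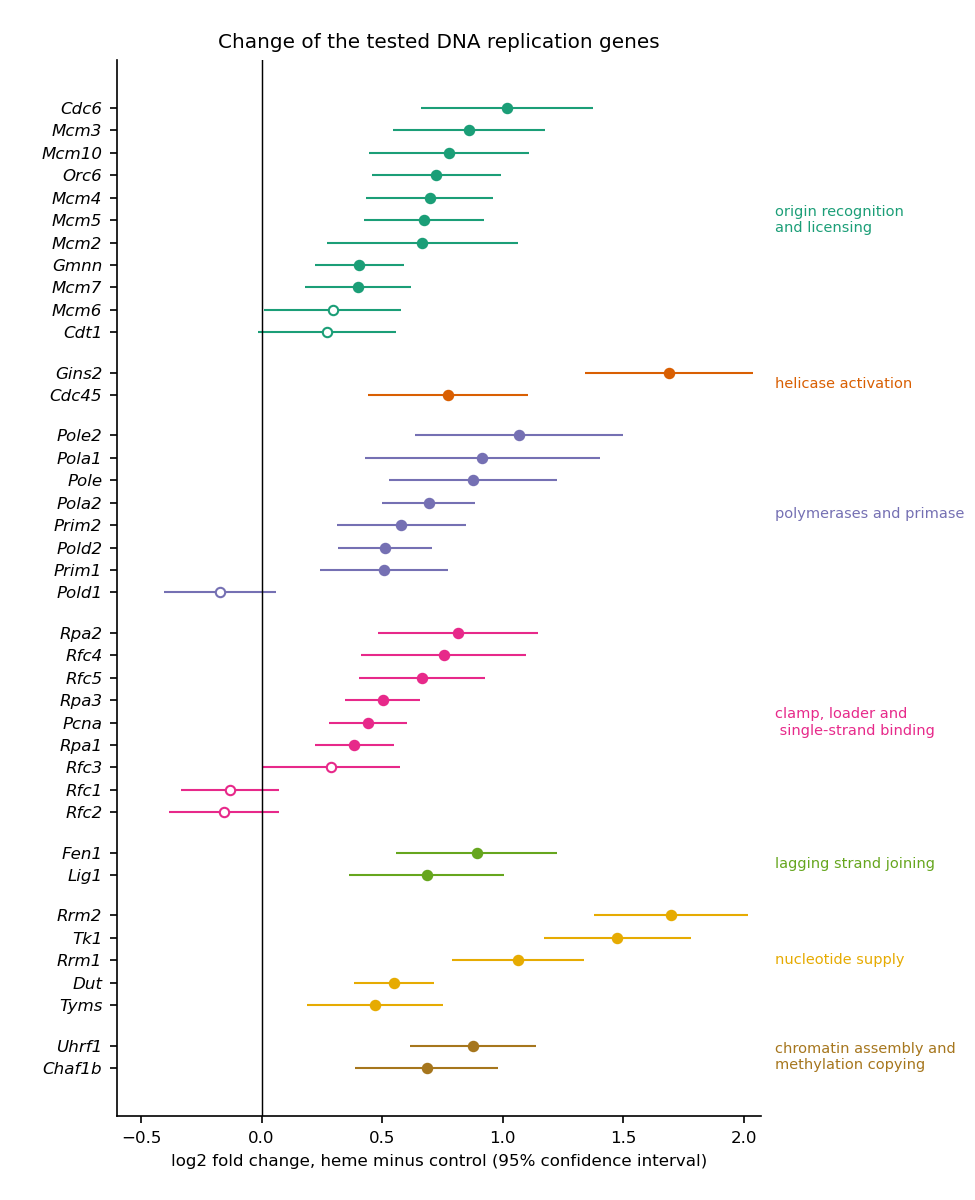
Log2 fold change (heme minus control, 6 control and 9 heme mice) of each tested replication gene, with its 95% confidence interval, grouped and coloured by role. Filled points are genes called at an adjusted p under 0.05 and open points the 6 that were not called. Rrm2 and Gins2 lie farthest to the right at 1.70 and 1.69, and Pold1, Rfc2 and Rfc1 lie to the left of 0.

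Arrays were alike in scale, with medians from 3.11 to 3.24 on the log2 scale and correlations from 0.982 to 0.997 between them. Epithelial keratins and Epcam were over the floor on every array, and the mean log2 level of 8 epithelial markers ran from 12.4 to 12.7 in controls and from 12.6 to 12.7 in heme mice. Markers of several cell types moved with the diet. Apart from the smooth muscle and distal colon covariates below, the part of cell types and colon position in the results was not tested. Of 6 goblet cell markers 5 fell, with a mean log2 level from 13.1 to 13.3 in controls and from 12.8 to 13.1 in heme mice. Of 6 enteroendocrine markers 4 fell, with a mean from 9.18 to 9.89 in controls and from 8.07 to 8.57 in heme mice, and all 3 tested of 4 tuft cell markers fell, from 5.13 to 5.55 in controls to 3.97 to 4.65 in heme mice. The 1 tested of 4 proximal colon markers, Hoxb6, fell by 0.90 on the log2 scale. Of smooth muscle markers, all 4 tested of 6 fell, their mean log2 level ran from 6.08 to 9.76 in controls and from 4.88 to 6.62 in heme mice, and Des and Cnn1 were under the filter. With that level as a covariate 31 of the 39 replication genes were called higher and 0 lower, and their median was 0.72. In that fit 19.1% of all tested genes were higher and 18.8% lower. The smooth muscle level itself differed between the groups, and 3 of its 4 genes were over the floor on some arrays only. This covariate therefore cannot separate tissue content from diet. Of the T cell, endothelial and neutrophil markers only Gzma, made by cytotoxic lymphocytes, passed the filter, and it fell. Of 6 fibroblast markers 5 were tested and 0 were called, with a fitted log2 change from -1.03 to 0.53. Of 5 markers of germinal centre B cells, which also divide, 3 were tested and all 3 fell. Their mean log2 level ran from 6.68 to 7.39 in controls and from 5.74 to 6.37 in heme mice. The part of these cells in the levels of the replication genes was not tested. Of 6 tested crypt base genes 0 rose and 4 fell, among them the stem cell marker Lgr5, whose log2 level changed by -0.94 ± 0.14 (adjusted p = 4.48e-05, limma). The ratio of 3' to 5' signal of the array's Gapdh control differed by -0.05 on the log2 scale (exact two-sided permutation p = 0.0645) and that of Actb by -0.06 (p = 0.175, the same test).

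Promoter sequence was available for 35 of the 42 genes in the RefSeq promoter table (GRCm38.p6, 250 bases before to 50 after each start), with 41 promoters in all. No entry was found for Gins1, Gins2, Gmnn, Mcm4, Pole, Prim2 and Rfc2. Both strands were searched for 4 octamers bound by E2F factors, TTTCCCGC, TTTCGCGC, TTTGCCGC and TTTGGCGC, and for the CCAAT box, the site of factor NF-Y. An E2F octamer occurred in 13 of the 41 promoters (31.7%), against 2.26% of all 32851 promoters in the table and 4.01% of those of tested genes. A CCAAT box occurred in 24 of 41 (58.5%), against 37.4% of all promoters. Among genes that rose, 8 of 34 promoters held an octamer (23.5%), and of the 5 promoters of genes that were tested and not called 4 did, those of Cdt1, Mcm6, Pold1 and Rfc3. Both shares were above the 4.01% of tested genes, but 5 promoters are too few to compare them with each other. Of the 4 genes, Cdt1, Mcm6 and Rfc3 were called higher once control mouse 3 was left out. That mouse was the highest control for each of them, so leaving it out was bound to raise their changes. It was named after its values were seen, and no conclusion is drawn from this. These counts are of letters in a window, not of bound sites, and a part of E2F in the changes was not tested.

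A few promoters are printed to show this spread of motifs beside the changes, the 200 bases before the start, 5′ to 3′ on the gene's strand, chosen after the values and motifs were seen. They belong to Mcm5 (chr8:75109309-75109508, plus strand), Mcm6 (chr1:128359706-128359905, minus strand), Cdc6 (chr11:98907951-98908150, plus strand), Rfc3 (chr5:151651209-151651408, minus strand), Rrm2 (chr12:24708054-24708253, plus strand) and Pcna (chr2:132253181-132253380, minus strand). Capitals mark a match on either strand to an E2F octamer or a CCAAT box, which reads ATTGG on the other strand. Runs of 12 capitals are 2 octamers on opposite strands that overlap by 4 bases.
Mcm5: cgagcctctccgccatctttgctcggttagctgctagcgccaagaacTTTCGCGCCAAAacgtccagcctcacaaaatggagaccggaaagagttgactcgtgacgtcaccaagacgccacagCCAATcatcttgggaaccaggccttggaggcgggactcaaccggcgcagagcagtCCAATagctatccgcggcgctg
Mcm6: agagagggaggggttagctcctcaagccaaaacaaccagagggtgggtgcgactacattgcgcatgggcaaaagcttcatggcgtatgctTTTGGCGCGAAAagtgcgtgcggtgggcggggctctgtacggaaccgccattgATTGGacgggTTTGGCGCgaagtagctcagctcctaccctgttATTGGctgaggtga
Cdc6: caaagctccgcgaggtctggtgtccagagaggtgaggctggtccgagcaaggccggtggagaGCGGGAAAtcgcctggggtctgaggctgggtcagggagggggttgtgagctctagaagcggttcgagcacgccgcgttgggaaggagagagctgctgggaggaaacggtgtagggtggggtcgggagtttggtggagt
Rfc3: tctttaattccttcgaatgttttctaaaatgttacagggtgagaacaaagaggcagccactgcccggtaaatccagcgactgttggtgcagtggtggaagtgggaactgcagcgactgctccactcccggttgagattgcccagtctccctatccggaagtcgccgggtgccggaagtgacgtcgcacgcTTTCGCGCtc
Rrm2: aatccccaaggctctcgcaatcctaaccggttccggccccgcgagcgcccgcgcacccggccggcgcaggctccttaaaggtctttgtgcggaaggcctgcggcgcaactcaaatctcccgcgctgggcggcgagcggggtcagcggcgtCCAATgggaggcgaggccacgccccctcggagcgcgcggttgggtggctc
Pcna: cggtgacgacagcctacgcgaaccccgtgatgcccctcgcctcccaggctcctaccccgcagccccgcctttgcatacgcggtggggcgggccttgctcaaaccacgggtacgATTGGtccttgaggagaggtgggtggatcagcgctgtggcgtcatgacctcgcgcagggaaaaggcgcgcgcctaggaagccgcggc
Mcm5 and Mcm6, subunits of the same helicase, both hold such an overlapping pair and CCAAT boxes, and Mcm6 holds a further octamer. Their log2 fold changes were 0.67 and 0.30, and only that of Mcm5 was called. Rrm2, with the largest rise of the 39 genes, has a CCAAT box and no octamer in this window, like Pcna, while Cdc6 and Rfc3 have an octamer there and no CCAAT box. This holds for the 200 bases printed, since in the longer window that was searched Rfc3 also has a CCAAT box and a second octamer.

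Licensing factors rose in 9 of 11 tested genes, with a median log2 fold change of 0.67. Cdc6, the ATPase that recruits the helicase to origins, had log2 levels of 3.76, 4.05 and 4.74 in controls (lowest, median and highest mouse) and of 4.58, 5.08 and 5.54 in heme mice. It rose by 1.02 ± 0.17 (log2 fold change ± SE, adjusted p = 0.000133, limma), and 8 of 9 heme mice lay above all controls. Several controls lay under the floor, so the size of this change is less certain than its direction. Orc6, a subunit of the origin recognition complex, rose by 0.72 ± 0.13 and Mcm10, which helps to start the fork, by 0.78 ± 0.16, both with groups that did not overlap. With the smooth muscle covariate the change of Mcm10 was 0.35 and no longer called (adjusted p = 0.177, limma). Orc1, the largest subunit, was over the floor on 5 arrays only and was not tested, and its levels overlapped widely, from 4.01 to 4.68 in controls and from 3.91 to 4.59 in heme mice.

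The factor that loads the helicase and its inhibitor gave different calls. Cdt1, which brings MCM2-7 to origins, had log2 levels of 8.34, 8.55 and 9.09 in controls and of 8.47, 8.89 and 9.32 in heme mice. Its log2 fold change of 0.27 (95% confidence interval -0.01 to 0.56, adjusted p = 0.101, limma) was not called. The highest control was mouse 3, and without it the change was 0.37 (adjusted p = 0.0229, limma). Geminin, encoded by Gmnn, which binds Cdt1 and stops a second round of licensing, rose by 0.41 ± 0.09. The difference between both changes was -0.13 ± 0.13 (SE), which did not pass the test described below.

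Of the 6 subunits of the MCM2-7 ring, 5 rose. Mcm3 rose by 0.86 ± 0.15, Mcm4 by 0.70 ± 0.12, Mcm5 by 0.67 ± 0.12, Mcm2 by 0.67 ± 0.19 and Mcm7 by 0.40 ± 0.10. The groups did not overlap for Mcm4, and for Mcm2 4 of 9 heme mice lay above all controls. Mcm6 had log2 levels of 9.49, 9.69 and 10.34 in controls and of 9.61, 10.12 and 10.46 in heme mice, and only 1 heme mouse lay above control mouse 3, the highest control. Its change of 0.30 (95% confidence interval 0.01 to 0.58, adjusted p = 0.0746, limma) was not called, whereas a second Mcm6 probe set changed by 0.63 ± 0.13 and was called. Without control mouse 3 the first probe set was called too, at 0.41 (adjusted p = 0.00892, limma). Which of both probe sets reports Mcm6 better cannot be told from these values.

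Helicase activation held the largest rise outside nucleotide supply, that of Gins2. Gins2 had log2 levels of 4.07, 4.73 and 5.02 in controls and of 5.86, 6.33 and 6.92 in heme mice, and the groups were well apart. It rose by 1.69 ± 0.16 (adjusted p = 1.01e-06, limma) and ranked 77 among all tested genes by log2 fold change. A second Gins2 probe set rose by 1.00 ± 0.11. Cdc45 had log2 levels of 3.65, 3.76 and 4.07 in controls, all under the floor, and of 4.18, 4.64 and 5.37 in heme mice, which makes the rise at least 1.21-fold. With values raised to the floor its change was 0.31 and not called (adjusted p = 0.0571, limma). Gins1, another GINS subunit, had too few arrays over the floor to be tested, 0 of 6 controls and 5 of 9 heme mice. Its levels were 3.23, 3.44 and 3.83 in controls and 4.04, 4.43 and 4.88 in heme mice. All 9 heme mice lay above all controls, but with every control under the floor no result is drawn from this.

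Among polymerases and primase 7 of 8 genes rose, with a median of 0.64. Pole2, the second subunit of the leading-strand polymerase epsilon, had log2 levels of 5.36, 5.59 and 6.58 in controls and of 6.49, 6.78 and 7.60 in heme mice. It rose by 1.07 ± 0.20 (adjusted p = 0.000436, limma), with 6 of 9 heme mice above all controls. The catalytic subunit Pole rose by 0.88 ± 0.16 with no overlap. All 4 subunits of polymerase alpha-primase rose, Pola1 by 0.92 ± 0.23, Pola2 by 0.69 ± 0.09, Prim2 by 0.58 ± 0.13 and Prim1 by 0.51 ± 0.13. Of these Pola1 varied most, from 4.48 to 6.19 in controls, and had 2 of 9 heme mice above all controls, whereas the groups did not overlap for Pola2.

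Polymerase delta, which copies the lagging strand, was split. Its second subunit Pold2 rose by 0.51 ± 0.09 with groups that did not overlap. The catalytic subunit Pold1 had log2 levels of 6.94, 7.29 and 7.65 in controls and of 6.79, 7.16 and 7.43 in heme mice. Its log2 fold change was -0.17 (95% confidence interval -0.41 to 0.06, adjusted p = 0.198, limma), so a rise like that of Pold2 lay outside the interval. A second Pold1 probe set gave 0.09 ± 0.10, and Pold1 was the only gene of the list whose probe sets over the floor differed in sign.

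The clamp, its loader and RPA gave the lowest share of calls, 6 of 9, with a median of 0.44. Pcna, the sliding clamp, had log2 levels of 11.32, 11.49 and 11.89 in controls and of 11.87, 11.98 and 12.16 in heme mice, so the lowest heme mouse lay just under the highest control. It rose by 0.44 ± 0.08 (adjusted p = 0.000191, limma), and 7 of 9 heme mice lay above all controls. All 3 subunits of RPA rose. Rpa2 had log2 levels of 5.77, 6.08 and 6.76 in controls and of 6.67, 6.92 and 7.65 in heme mice. It rose by 0.81 ± 0.16 (adjusted p = 0.000465, limma), with 8 of 9 heme mice above all controls. Rpa3 rose by 0.50 ± 0.07 and Rpa1 by 0.39 ± 0.08, both without overlap.

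Of the clamp loader's 5 subunits, Rfc4 rose by 0.75 ± 0.16 and Rfc5 by 0.67 ± 0.12, each with 7 of 9 heme mice above all controls. With the smooth muscle covariate Rfc5 changed by 0.45 and was not called (adjusted p = 0.0589, limma). The large subunit Rfc1 had log2 levels of 7.41, 7.54 and 7.82 in controls and of 7.22, 7.43 and 7.76 in heme mice. Its log2 fold change was -0.13 (95% confidence interval -0.33 to 0.07, adjusted p = 0.260, limma), and the groups overlapped. Rfc2 had log2 levels of 8.24, 8.58 and 8.88 in controls and of 8.27, 8.35 and 8.92 in heme mice, with a change of -0.16 (95% confidence interval -0.38 to 0.07, adjusted p = 0.230, limma). Its highest heme value belonged to mouse 8, and without that mouse Rfc2 was called lower, at -0.22 (adjusted p = 0.0456, limma). Rfc3 had log2 levels of 7.47, 7.76 and 8.28 in controls and of 7.78, 8.08 and 8.64 in heme mice, with a change of 0.29 (95% confidence interval 0.00 to 0.57, adjusted p = 0.0832, limma). A second Rfc3 probe set changed by 0.57 ± 0.14 and was called. Without control mouse 3, the highest control for Rfc3, the first one was called at 0.38 (adjusted p = 0.0228, limma).

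Both enzymes that finish the lagging strand rose. The flap endonuclease Fen1 had log2 levels of 6.45, 6.74 and 6.99 in controls and of 7.35, 7.53 and 8.57 in heme mice, with the highest value in mouse 8. It rose by 0.89 ± 0.16 (adjusted p = 0.000231, limma), and DNA ligase Lig1 by 0.69 ± 0.15. The groups did not overlap for either gene.

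All 5 tested genes of nucleotide supply rose, with a median of 1.06, and 3 of them were among the 6 that rose at least 2-fold. Rrm2 had log2 levels of 7.05, 7.40 and 8.04 in controls and of 8.82, 9.13 and 9.58 in heme mice, so its groups were well apart. It rose by 1.70 ± 0.15 (adjusted p = 4.23e-07, limma), ranked 76 among all tested genes, and its other probe sets rose by 1.86 and 2.21. Rrm1, the large subunit of the same enzyme, rose by 1.06 ± 0.13, and Tk1, which salvages thymidine, by 1.48 ± 0.14 from a median of 6.96 to 8.49. Dut, which breaks down dUTP and so keeps uracil out of DNA, rose by 0.55 ± 0.08. The groups of Rrm1, Tk1 and Dut did not overlap. Thymidylate synthase, Tyms, rose by 0.47 ± 0.13 on its own probe set, with 7 of 9 heme mice above all controls.

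The chromatin genes of the list rose as well. Uhrf1, which guides maintenance DNA methylation to newly copied strands, had log2 levels of 7.18, 7.35 and 7.73 in controls and of 7.85, 8.19 and 8.65 in heme mice, without overlap. It rose by 0.88 ± 0.12 (adjusted p = 3.23e-05, limma). Chaf1b, a subunit of the histone chaperone CAF-1, rose by 0.68 ± 0.14, also without overlap. No probe set carried the symbol Chaf1a, the other large CAF-1 subunit, alone. The plot of levels by mouse sets genes with wide gaps beside those whose groups overlap.

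**Figure D2:**
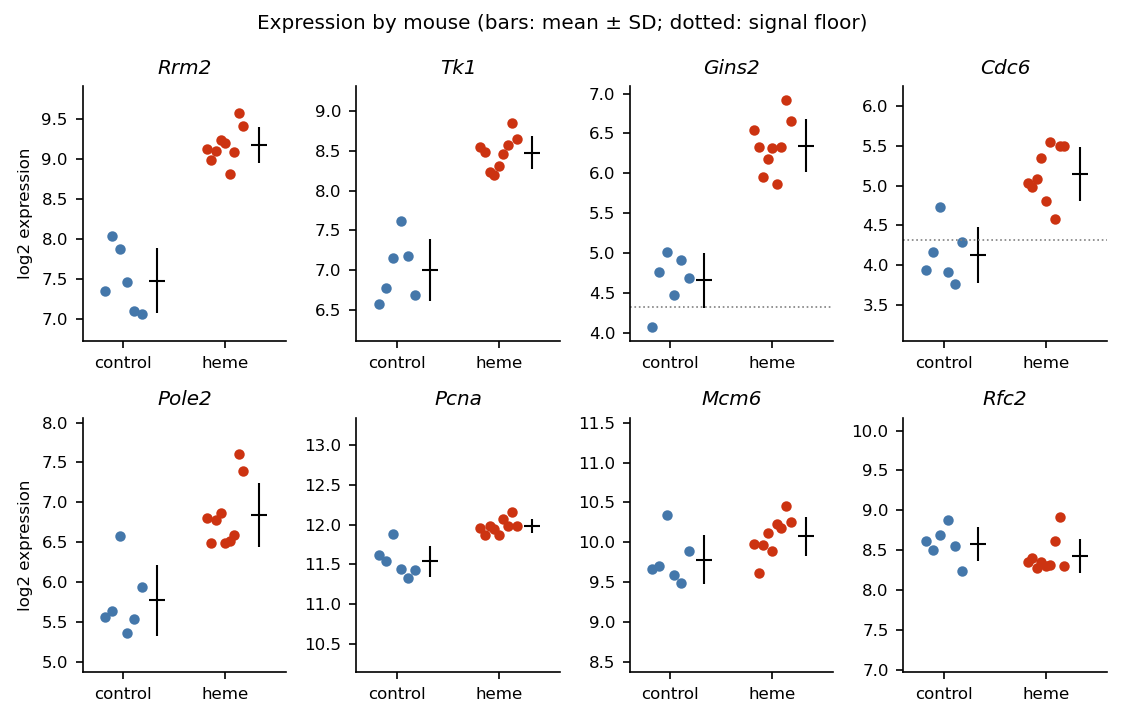
Log2 expression of 8 replication genes in each control (blue) and heme (red) mouse, with black bars for the mean ± SD and a dotted line at the signal floor where values come near it. All panels span the same log2 range. Rrm2, Tk1 and Gins2 show a gap between the groups, Pcna a small rise with overlap, and Mcm6 and Rfc2 wide overlap.

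More than 1 probe set over the floor was present for 21 of the tested genes. In 20 of these all such probe sets changed in 1 direction, and in 15 all were called. The gap between the lowest and the highest log2 fold change had a median of 0.18 over the 21 genes and was over 0.5 for Gins2 and Rrm2 only. For Mcm5 the 2 probe sets gave 0.67 and 1.11. The size of a change, more than its direction, therefore depended on the probe set.

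Whether subunits of 1 complex changed equally was tested for 40 pairs of genes by an exact two-sided permutation test over the 5005 splits of the mice, with Benjamini-Hochberg adjustment over the pairs. The pairs were chosen after the values were seen, and the smallest p the test can give is 0.0002. In 18 of 40 pairs the changes differed. In the clamp loader 7 of 10 pairs did, and the split ran between Rfc1 and Rfc2 on one side and Rfc4 and Rfc5 on the other. Rfc3 lay between them on the probe set used for it. Over probe sets Rfc3 minus Rfc4 ran from -0.54 to -0.18. Rfc3 minus Rfc5 ran from -0.38 to -0.09 and did not pass the test. The log2 fold change of Rfc1 minus that of Rfc4 was -0.89 ± 0.11 (SE, adjusted exact permutation p = 0.00133), and over all probe sets of both genes it ran from -0.96 to -0.81. Rfc2 minus Rfc5 was -0.82 ± 0.11 (adjusted exact permutation p = 0.00133), from -0.82 to -0.69 over probe sets. Rfc1 and Rfc2 differed by 0.03 ± 0.15 and Rfc4 and Rfc5 by 0.09 ± 0.22, neither of which passed the test.

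In the MCM2-7 ring 7 of 15 pairs differed, and each of these set Mcm6 or Mcm7 against another subunit. Mcm3 minus Mcm6 was 0.56 ± 0.08 and Mcm5 minus Mcm6 was 0.38 ± 0.06 (adjusted exact permutation p = 0.00133 for both). These differences depended on the probe set, since they ran from 0.09 to 0.61 and from 0.04 to 0.82 over the probe sets of both genes, and Mcm2 minus Mcm6 ran from -0.26 to 0.37. Pold1 minus Pold2 was -0.68 ± 0.14 (adjusted exact permutation p = 0.00178), from -0.68 to -0.42 over probe sets. Rpa1 minus Rpa2 was -0.43 ± 0.16 (adjusted exact permutation p = 0.00423). None of the 6 pairs within polymerase alpha-primase passed the test, nor did Pole against Pole2 (-0.19 ± 0.17) or Fen1 against Lig1 (0.21 ± 0.20), and the standard errors of these 8 differences ran from 0.11 to 0.26.

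Ribonucleotide reductase showed a graded pattern. Rrm1 minus Rrm2 was -0.64 ± 0.14 (adjusted exact permutation p = 0.0020), and the difference was larger, down to -1.16, with other probe sets. Rrm2b, the small subunit used outside S phase and not on the list, had log2 levels of 5.16, 5.41 and 6.22 in controls and of 4.79, 5.19 and 5.49 in heme mice. Its own change of -0.34 ± 0.15 (adjusted p = 0.0730, limma) was not called. Rrm2 minus Rrm2b was 2.03 ± 0.25 (adjusted exact permutation p = 0.00133), and all 9 heme mice lay beyond all controls in that difference.

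**Figure D3:**
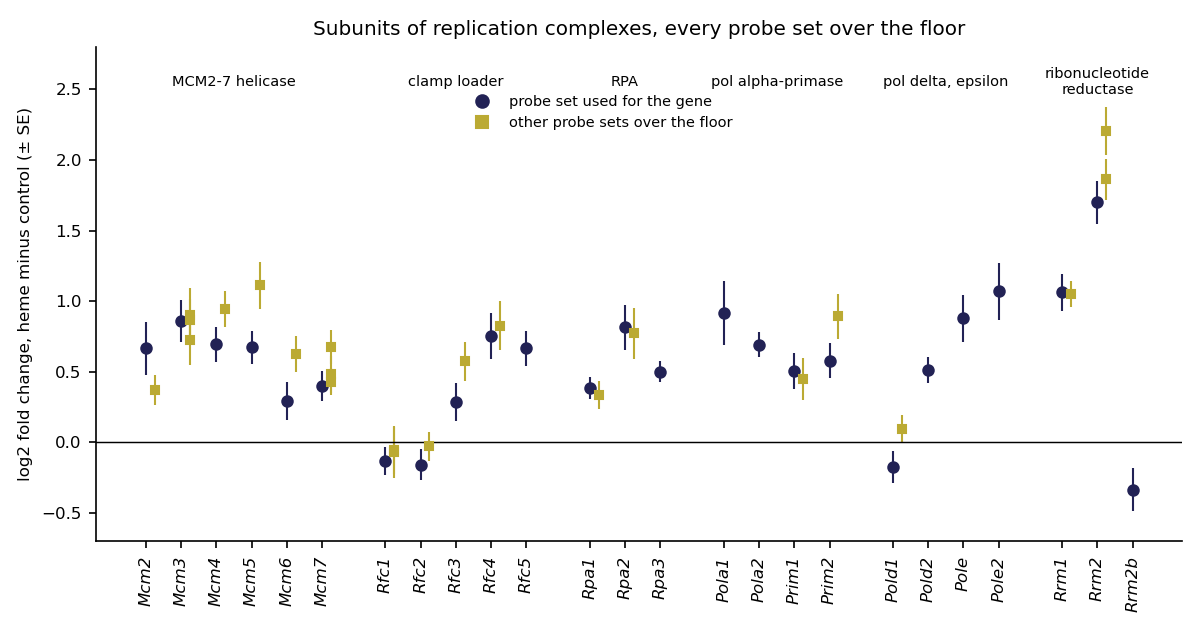
Log2 fold change (heme minus control, ± SE) of every probe set over the signal floor for the subunits of 6 replication complexes. Dark circles are the probe set used for the gene and yellow squares its other probe sets. Rfc1, Rfc2 and Pold1 lie near 0 beside partners that rose, the squares of Mcm6 and Mcm7 lie above their circles, and Rrm2b lies under 0.

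Within each group the same few mice were high or low for many of the replication genes. Control mouse 3 had the highest control value for 27 of the 39 genes, and heme mouse 8 the highest heme value for 30 of 39, while heme mouse 2 had the lowest heme value for 20. The mean log2 level of the 33 genes over the floor on every array was 8.06 in control mouse 3 and from 7.53 to 7.66 in the other controls. It was 8.72 in heme mouse 8, 8.04 in heme mouse 2 and from 8.20 to 8.47 in the other heme mice. Heme mouse 2 thus lay just under control mouse 3, and the groups overlapped through these mice alone. With control mouse 3 and heme mouse 8 left out together, 35 of 38 tested genes rose and 0 fell. In that fit 25.6% of all tested genes were higher and 23.8% lower. The SD between mice had a median over the 39 genes of 0.27 in controls and 0.23 in heme mice, against 0.18 and 0.16 over all tested genes.

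**Figure D4:**
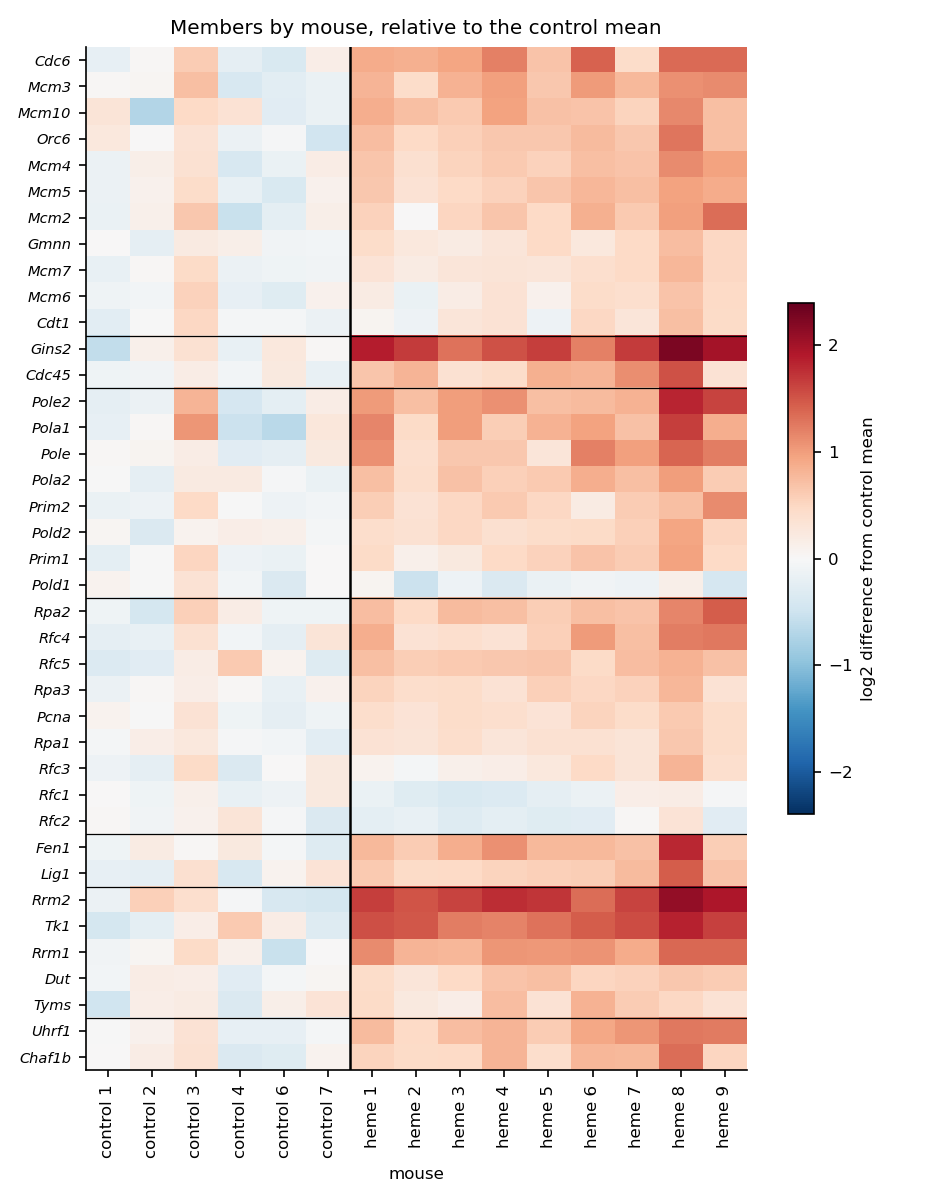
Log2 difference of each tested replication gene (rows, ordered by role and then by change) from its control mean in each mouse (columns, 6 control and 9 heme). Red is higher and blue lower, and black lines separate the groups and the roles. The column of heme mouse 8 is the darkest red, and that of control mouse 3 stands out among the controls.

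From 77 other genes of replication and of entry into S phase 68 were tested, of which 41 rose, 4 fell and 23 were not called, and their median change was 0.42 on the log2 scale. The shares were 60.3% higher and 5.88% lower, against 27.2% and 26.4% of all tested genes, and without control mouse 2 the number lower was 8. Over the floor on every array were 61 of them, with 34 higher (55.7%) and 4 lower (6.56%). Among genes of origin firing and the fork, 9 of 15 rose and 0 fell. Cdc7, the kinase that fires origins, had all controls under the floor, at 2.68, 3.30 and 3.99, and heme mice at 4.13, 4.88 and 5.42, a rise of at least 1.47-fold. Its activating subunit Dbf4 rose by 0.94 ± 0.10 from a median of 8.26 to 9.16, without overlap.

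Of the further polymerase, clamp and joining genes 11 of 16 rose and 0 fell, against 27.2% and 26.4% of all tested genes. Dscc1, a subunit of an alternative clamp loader, rose by 1.06 ± 0.21, from a median of 4.32 to 5.53, with 3 of 6 controls over the floor. The PCNA-binding factor Pclaf rose by 0.87 ± 0.09, and Top2a, the topoisomerase that untangles copied DNA, by 0.67 ± 0.09, both without overlap. Further nucleotide genes gave 6 of 13 higher and 1 lower. Adenosine deaminase, Ada, rose by 1.93 ± 0.20 and the nucleoside diphosphate kinase Nme1 by 0.64 ± 0.08, while Tk2, the mitochondrial counterpart of Tk1, fell by 0.33 on the log2 scale, from a median of 6.88 to 6.60. Thus the S phase enzymes Rrm2 and Tk1 rose, Tk2 fell, and Rrm2b was not called.

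Chromatin-copying genes rose in 5 of 7 cases, against 27.2% of all tested genes. They were led by the histone chaperone Asf1b at 1.37 ± 0.16 and the centromeric histone Cenpa at 1.21 ± 0.19. Dnmt1, the maintenance methyltransferase that Uhrf1 guides, had log2 levels of 8.20, 8.44 and 8.61 in controls and of 8.37, 8.70 and 9.07 in heme mice. Its rise of 0.28 ± 0.11 (adjusted p = 0.0369, limma) was lost in 16 of 31 other settings, including leaving out any of 5 heme mice or any of 4 controls. Regulators of S phase entry gave 10 of 17 higher and 3 lower. E2f2, an activating E2F, rose by 2.10 ± 0.27, from 4.01, 5.25 and 5.68 in controls to 6.42, 7.24 and 7.64 in heme mice, with wide spread among the controls, of which 4 of 6 were over the floor, and no overlap. Skp2, which marks cell cycle inhibitors for breakdown, rose by 1.41 ± 0.16 and cyclin E1, Ccne1, by 0.86 ± 0.14, both without overlap. E2f5 fell by 0.42 on the log2 scale, whereas E2f8 rose by 1.38 ± 0.14 without overlap, so the E2F genes did not move in 1 direction. E2f3 changed by 0.10 and was not called, and E2f1 was under the floor on every array. Tfdp2, an E2F partner, fell by 0.43 on the log2 scale on the probe set used. This depended on the probe set, since others over the floor on every array changed by 0.15 and 0.09, neither called. Another Tfdp2 probe set, over the floor on 7 arrays, fell by 0.63.

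Mitosis genes, which act after replication is done, rose in 25 of 25 tested cases with a median of 1.12, and 21 had groups that did not overlap. Of all tested genes 27.2% rose and 11.2% had every heme mouse above every control. The proliferation marker Mki67 rose by 0.62 ± 0.09 (adjusted p = 6.45e-05, limma), from a median of 9.71 to 10.29. The difference between this list and the replication genes was not tested. The order of the mice was not the same in both lists. The mean log2 level of the mitosis genes ran from 6.90 to 8.03 in controls and from 8.34 to 8.79 in heme mice. Control mouse 3, the highest control for replication, stood at 7.18, second lowest of the controls, and the highest was control mouse 4 at 8.03. Control mouse 4 also stood apart in 3 markers of the distal colon, at a mean log2 level of 3.19 against 6.81 to 8.94 in the other controls, and the part of this in its levels was not tested. With the distal markers as a covariate 33 of the 39 replication genes rose and 0 fell. In that fit 27.1% of all tested genes were higher and 26.9% lower. All 3 markers were over the floor on some arrays only, and control mouse 4 stood far from the rest. This covariate therefore cannot separate position in the colon from diet.

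**Figure D5:**
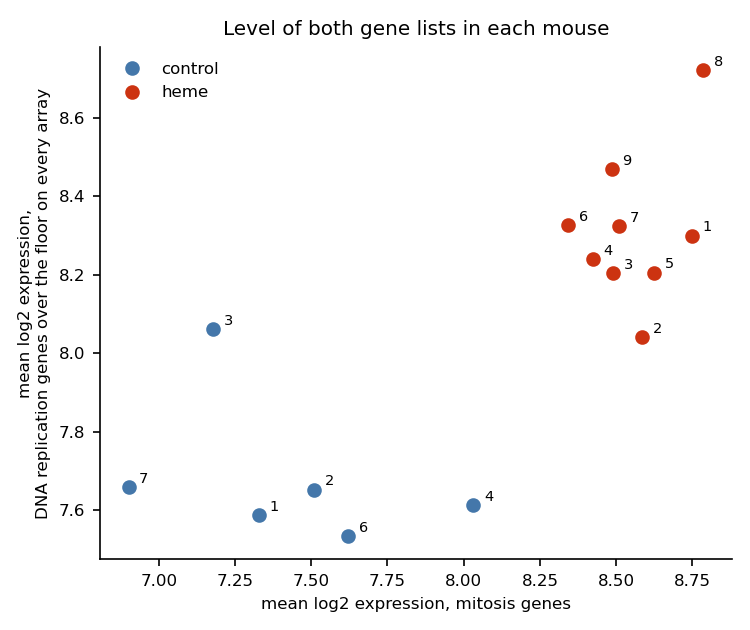
Mean log2 expression of the 33 replication genes over the floor on every array (vertical axis) against that of 25 mitosis genes (horizontal axis), 1 point per mouse, labelled with its number, control in blue and heme in red. Heme mice lie to the upper right. Control mouse 3 is high for replication at 8.06 and low for mitosis at 7.18, and control mouse 4 is at 8.03 for mitosis.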

How the data were processed

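Expression was measured on 1 Affymetrix array per mouse, 6 control and 9 heme. The deposited log2 values were made by the authors with GCRMA 2.22.0, per the submitters' processing notes, which here give no other step. Control replicate 5 was not analysed here. A gene was represented by the probe set with its symbol alone and the highest mean over all 15 arrays, and 9257 of 18194 genes had a signal over 20 on at least 6 arrays. Both groups were compared with lmFit and eBayes of limma 3.58.1 (R 4.3.3), adjusted by Benjamini-Hochberg over these genes at a threshold of 0.05. The procedure was run on simulated data with known changes, as a check of the code only. In the simulation genes varied independently and few of them changed, unlike in these data. Where all arrays of a group lay under the floor, folds are given against it as "at least". Precision is limited by the number of arrays. The genes and lists were chosen with earlier results of these data known. Named with values were the gene with the largest change in each role, those not called, Pcna, the 2 largest called changes per direction of each other list and 7 fixed genes (Mki67, Top2a, Dnmt1, E2f1, Ccne1, Rrm2b and Lgr5). Other genes that are not on the list of 42, and single mice, were named after their values were seen. Alternatives covered the filter, probe set choice, normalization, variance model, covariates and leaving out mice.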

Additional observations from a re-analysis of the deposited data

Results flagged for a closer look

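In 14 of 116 groups checked, from 58 genes, the highest mouse stood apart from the rest of its group by Dixon's criterion, and chance alone marks about 1 group in 20. Heme mouse 8 stood high for 10 genes. Its log2 levels were 6.97 for Orc6, 10.82 for Mcm7, 9.82 for Pold2, 10.12 for Rpa1, 10.05 for Rpa3, 8.57 for Fen1, 7.81 for Lig1, 5.85 for Chaf1b, 6.67 for Asf1b and 10.57 for Top2a. Control mouse 3 stood high for 4 genes, with log2 levels of 9.09 for Cdt1, 10.48 for Mcm7, 8.07 for Prim1 and 5.67 for Prim2. The genes share arrays, so these are not independent events.

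A probe set annotated to both Tyms-ps and Tyms, which the gene comparison did not use, had log2 levels of 7.58, 7.73 and 8.01 in controls and of 8.46, 8.75 and 9.09 in heme mice. The difference was 1.00, with all 9 heme mice above all controls, and was larger than the 0.47 of the probe set used for Tyms.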

How the results depend on the processing

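Of the 33 replication genes that rose, 29 kept the call in each of the settings run that could test them, and 0 changed direction. Cdc45 lost it with values under the floor raised to it (adjusted p = 0.0571, limma), Mcm10 and Rfc5 with the smooth muscle covariate (log2 fold changes of 0.35 and 0.45, adjusted p = 0.177 and 0.0589), and Mcm2 with the replicate block (0.0627). Leaving out 1 mouse gave 32 to 36 higher, 0 to 1 lower (Rfc2, without heme mouse 8) and a median of 0.62 to 0.76. For the other pathway genes it gave 38 to 43 higher and 4 to 8 lower, with 8 without control mouse 2, and 8 also fell without control mice 2 and 4 and heme mouse 6. With no signal filter 34 of 41 replication genes rose, and with a floor of 100 on at least 6 arrays 22 of 28. With the mean of all probe sets of a gene 28 of 32 rose. The shares of all tested genes that were higher with these settings were 15.9%, 30.4% and 28.4%, in the same order. Raising values to the floor, leaving out control mouse 3 with heme mouse 8, and requiring the mean over all arrays to lie over the floor were chosen after the data were seen. Equal replicate numbers did not mark related mice (correlations of deviations from -0.19 to 0.20, 1 of 6 over 0.1, and 1 of 6 best with its own number). With the replicate block 32 genes rose, 0 fell, and the median was 0.60, while 37 other pathway genes rose and 5 fell. In that fit 22.3% of all tested genes were higher and 20.5% lower. Controls under the floor limit the size given for Cdc6, Mcm10, Cdc45, Gins2, Tyms and Chaf1b and, among the other genes named, for Cdc7, Dscc1, Asf1b, E2f2 and Ccne1.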
